A study of Mus musculus with 24 samples.

Results

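Genes for enzymes that cut the extracellular matrix and for the proteins that inhibit them were followed through cultures of mouse astrocytes and microglia. They are the matrix metalloproteinases (MMPs) *Mmp2*, *Mmp3*, *Mmp9*, *Mmp12*, *Mmp13*, *Mmp14* and *Mmp15* and the tissue inhibitors of metalloproteinases (TIMPs) *Timp1*, *Timp2* and *Timp3*. They were taken by gene symbol and are 10 of the 24411 genes listed in the tables. They were picked from the family with values of these data already known, so their levels describe the genes chosen. MMPs are zinc-dependent proteases that are made as inactive precursors and become active once a propeptide is cut off. TIMPs bind the active site of MMPs and of some related ADAM proteases, so the RNA level of a protease alone does not give its activity. In the brain these enzymes are known for remodelling the matrix around synapses and vessels and for opening the blood-brain barrier in inflammation.

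The study asked how glia that carry the mutant human *SOD1* G93A transgene, a mouse model of amyotrophic lateral sclerosis kept on a C57BL/6J background, behave in isolation at rest and once activated. Astrocytes came from cortices of mice at postnatal day 5 and were immunopanned with an antibody to HepaCAM. Before that the cells were negatively panned for microglia (CD45), endothelial cells (the lectin BSL I) and oligodendrocyte-lineage cells (O4). Microglia came from whole, perfused brains at postnatal days 7 to 10 and were collected by magnetic sorting for Cd11b. RNA of each culture was profiled by bulk RNA-seq with enrichment for polyadenylated RNA.

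The values cover 7 conditions with 3 libraries each, 21 in all. Quiescent astrocytes, of wild-type (WT) and of *SOD1* G93A mice, had received PBS in serum-free medium with the growth factor HBEGF. Activated astrocytes of both genotypes had received 3 ng/mL IL-1α, 30 ng/mL TNFα and 400 ng/mL C1q, the microglial signals that induce a neuroinflammatory reactive state. WT quiescent microglia had received PBS in serum-free medium with TGF-β2 and IL-34, and activated microglia of both genotypes 50 ng/mL of the bacterial lipopolysaccharide LPS. The 3 samples of *SOD1* G93A quiescent microglia were not analysed here, so no LPS response was computed for that genotype. The labels number the samples of a condition 1 to 3 but do not say that they came from separate animals or cultures. The paper refers to a supplementary table for its numbers of biological replicates, and that table was not used here. So p-values measure the spread between these samples, which may be technical.

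The shallowest library held 2016139 counted reads, the deepest 11570122 and the median one 5098168. Levels are given as reads in 1000000 counted reads (CPM) and, between genes, as CPM per kilobase of exon (RPKM). Where a gene has no read, its level may still lie as high as 3 reads, or 0.259 CPM in the deepest library and 1.49 CPM in the shallowest, by counting error alone. Fitted changes, and whether groups overlap, were taken on counts divided by size factors, which differs from CPM by a factor per library that is the same for every gene. For the LPS response this adds on average 0.22 to the log2 change of CPM and for quiescent microglia against astrocytes 0.55. Scaling by counted reads instead was added as an alternative after seeing the data. A gene was tested where its mean was at least 10 normalised counts and called where the adjusted p-value of limma was under 0.001 and the change over 2-fold.

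The markers of the labelled cell types were present. All 10 astrocyte markers had reads in each of the 12 astrocyte libraries, with a summed level of 4272 to 6349 CPM led by *Slc1a3*, against 139 to 235 CPM in the 9 microglia libraries. With the cytokines 3 of the 10 were called lower in WT astrocytes. In *SOD1* G93A astrocytes 2 were called lower and 1, *Gfap*, was called higher. The 10 microglial markers summed to 8622 to 9179 CPM in WT quiescent microglia and to 2317 to 2441 CPM in WT LPS microglia, led by *Csf1r* and, in 2 of the LPS libraries, by *Itgam*. In the astrocyte libraries they summed to 140 to 321 CPM, and 1 of the 10, *Siglech*, was at 0 in 3 of those libraries. The astrocyte cultures also held markers of the oligodendrocyte lineage, at 2831 to 3437 CPM when quiescent and 1016 to 1108 CPM when activated, led by *Olig1* in each library. Of the 8 of these tested 3 fell in either genotype and the others were not called. Neuronal markers summed to 763 to 1000 CPM when quiescent and 400 to 458 CPM when activated, nearly all of it *Map2*, which fell. Of the 5 neuronal markers tested, the 4 others were higher in the WT response and 1 of them, *Tubb3* (log2 fold change 1.03), was called. Bulk values cannot tell fewer cells of a type from less RNA per cell.

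*SOD1* G93A LPS microglia replicate 3 differed from its group in marker levels. Its log2 levels had a Pearson correlation over 13138 genes of 0.984 and 0.985 with the other 2 libraries, which had 0.995 with each other. Correlations as low occurred in quiescent astrocytes, at 0.975 and 0.984 for WT replicate 1 and 0.983 and 0.989 for *SOD1* G93A replicate 3. Its microglial markers summed to 4221 CPM, against 2614 and 2669 CPM in replicates 2 and 1 and 8622 to 9179 CPM in WT quiescent microglia. Its endothelial markers were at 24.7 CPM against 49.2 and 58.6 CPM. The comparison of genotypes in LPS microglia is given with and without it.

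All 10 genes passed the filter on low values in 7 of the 9 comparisons. *Mmp9* was not tested in the LPS response of WT microglia, and *Mmp3* and *Mmp9* were not tested between the genotypes of quiescent astrocytes.

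**Figure D1:**
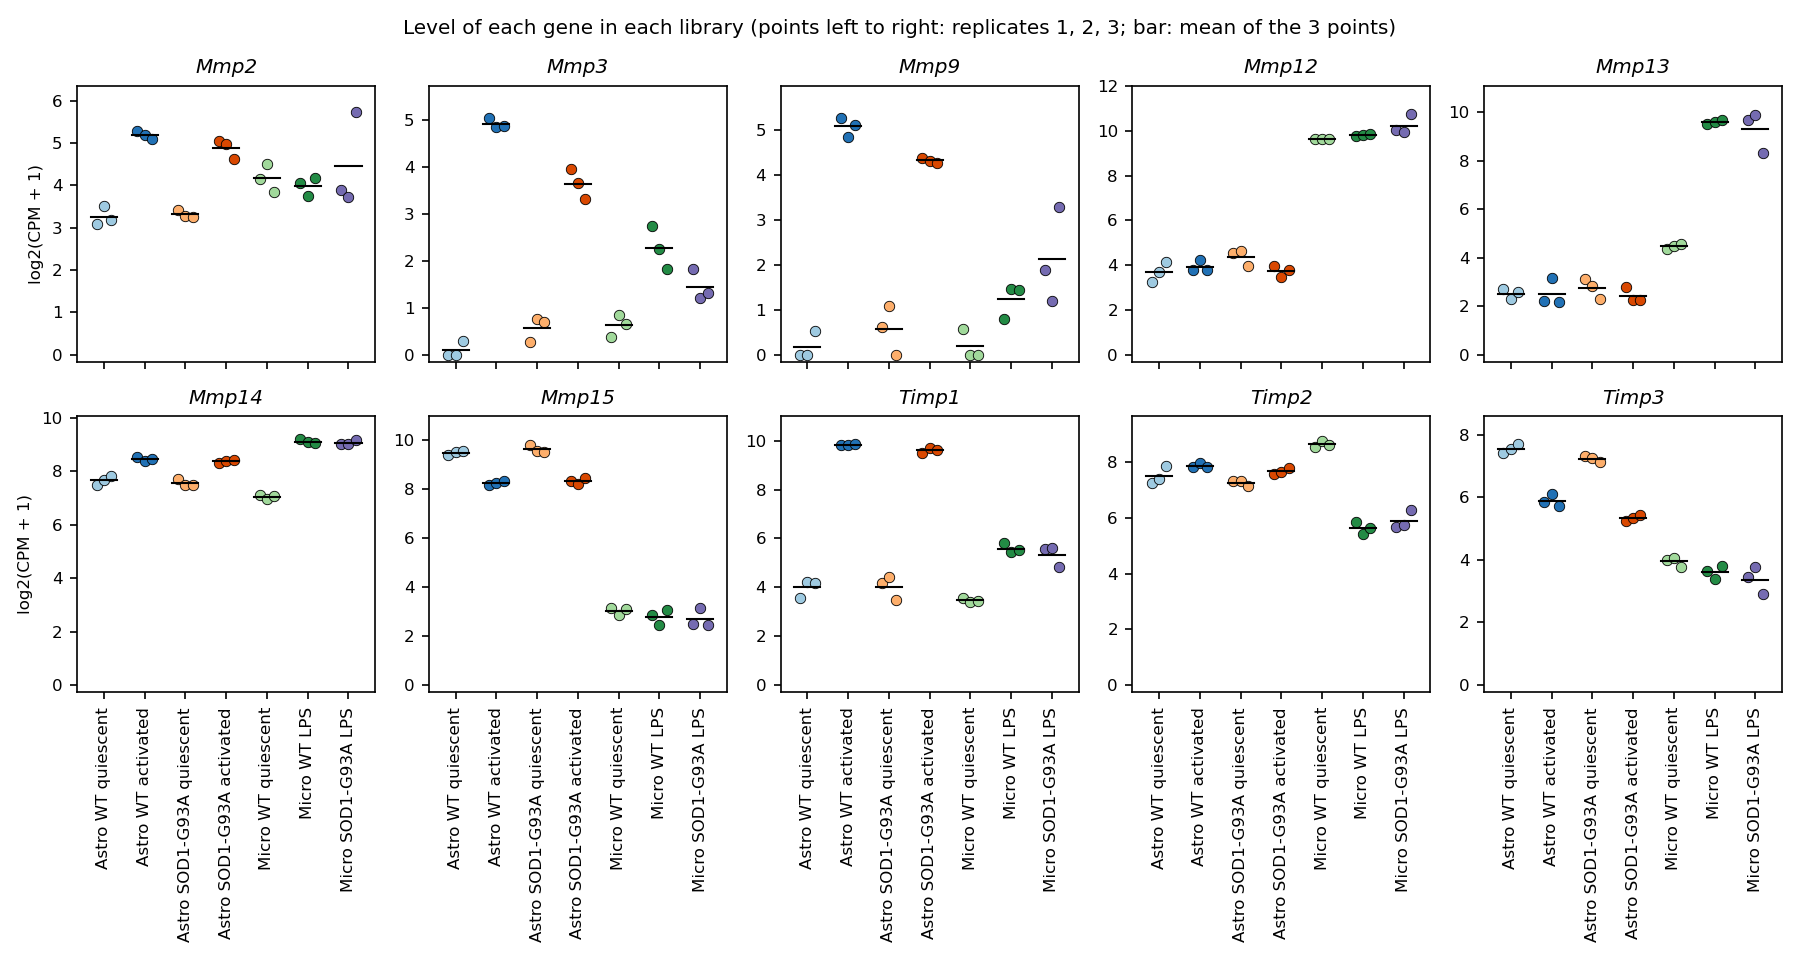
Level of each of the 10 genes in each of the 21 libraries, as log2(CPM + 1) on the vertical axis, with 1 panel per gene. Points are libraries, 3 per condition from left to right as replicates 1 to 3, and the bar is their mean. *Mmp3*, *Mmp9* and *Timp1* stand high in activated astrocytes, *Mmp12* in all 9 microglia libraries and *Mmp13* in the 6 LPS libraries.

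The gelatinases *Mmp2* and *Mmp9* cut denatured collagen and the type IV collagen of basement membranes. In WT astrocytes *Mmp2* was at 7.44, 10.4 and 8.10 CPM in the quiescent libraries and at 38.0, 35.5 and 32.9 CPM in the activated ones. The groups did not overlap, and the lowest activated library was over 3 times the highest quiescent one. *Mmp2* rose by a log2 fold change of 2.04 (SE 0.16, limma adjusted p = 2.2e-06, higher in 3 of 3 libraries), or 4.12-fold. *Mmp9* had 0, 0 and 4 reads in the quiescent WT libraries, at most 0.432 CPM, and 37.4, 27.8 and 33.6 CPM after the cytokines. It was at the limit of detection in each quiescent library and well above it in each activated one. Its fitted log2 fold change of 6.78 (SE 0.45, limma adjusted p = 6.8e-07) depends on the pseudocount, since the quiescent level is so close to 0.

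The stromelysin *Mmp3* cuts many matrix proteins and can also cut the precursors of other MMPs. It had 0, 0 and 2 reads in quiescent WT astrocytes and 32.1, 27.8 and 28.4 CPM in activated ones. With 3 reads allowed in each quiescent library, the level in activated astrocytes was at least 34.4-fold higher (limma adjusted p = 1.9e-07). At 16.3 ± 1.3 RPKM (SD, n = 3) *Mmp3* then stood above *Mmp2*, at 10.5 ± 0.77 RPKM, and *Mmp9*, at 9.30 ± 1.4 RPKM, and the last 2 lay within their spread of each other.

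The collagenase *Mmp13* cuts fibrillar collagen and the macrophage elastase *Mmp12* cuts elastin. Neither was called in WT astrocytes. *Mmp13* was at 3.85 to 5.46 CPM in the quiescent and 3.48 to 7.83 CPM in the activated libraries, with a log2 difference of −0.01 (SE 0.33, limma adjusted p = 0.99). *Mmp12* was at 8.43 to 16.8 and 12.7 to 18 CPM, with a log2 difference of 0.29 (SE 0.25, limma adjusted p = 0.41). Both ranges overlapped.

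*Mmp12* followed the microglial markers of the astrocyte libraries. Over these 12 libraries its CPM had a Pearson correlation of 0.957 and a Spearman correlation of 0.930 with the summed CPM of the 10 microglial markers, as a description of libraries that share conditions. Over the 9 microglia libraries the same correlations of *Mmp12* were −0.300 and −0.367. Its level was 6.01% to 8.87% of the marker sum in the astrocyte libraries and 8.78% to 9.32% of it in WT quiescent microglia. In the 6 LPS libraries it was 37.6% to 40.7%. The 3 genes whose log2 level was most like that of *Mmp12* over the 12 astrocyte libraries, among 9968 genes of at least 10 CPM, were *Il1a* (Pearson r = 0.970), *Dock8* (0.960) and *Tnfrsf1b* (0.955). For *Mmp13* the Pearson and Spearman correlations over the 12 astrocyte libraries were 0.756 and 0.713. Its share was 1.84% to 3.89% of the marker sum in astrocyte libraries. In the microglia the share of *Mmp13* ran from 0.224% in a quiescent library to 35.8% in an LPS library. The astrocytes had been negatively panned for microglia with CD45. What part of either level in their cultures came from microglia was not tested.

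The membrane-type MMPs *Mmp14* and *Mmp15* are anchored at the cell surface, and *Mmp14* is the main activator of the MMP2 precursor. *Mmp15* was at 679, 735 and 746 CPM in WT quiescent astrocytes and at 285, 307 and 320 CPM in activated ones. All 3 activated libraries lay below all 3 quiescent ones. *Mmp15* fell by 1.22 on the log2 scale (SE 0.09, limma adjusted p = 1.7e-06). *Mmp14* was at 178, 203 and 226 CPM and at 367, 338 and 352 CPM, also without overlap but in the other direction, and with a log2 difference of 0.83 (SE 0.11, limma adjusted p = 1.1e-04) it was under the 2-fold limit. The sum of the oligodendrocyte-lineage markers, lower in the activated libraries as given above, moved in the direction of *Mmp15*, and their part in its change was not tested.

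The inhibitor *Timp1*, a secreted TIMP that injury and cytokines are known to induce, was at 10.9, 17.6 and 17.2 CPM in quiescent WT astrocytes and at 895, 905 and 926 CPM in activated ones. The activated libraries lay close together and far above the quiescent ones. *Timp1* rose by a log2 fold change of 5.94 (SE 0.16, limma adjusted p = 1.8e-09, higher in 3 of 3 libraries), or 61.2-fold. *Timp3*, which is held in the matrix and also inhibits ADAM17, was at 168, 184 and 207 CPM and then at 55.9, 67.5 and 52.2 CPM. It fell by 1.65 on the log2 scale (SE 0.12, limma adjusted p = 1.3e-06), again without overlap. *Timp2*, which both inhibits MMP2 and takes part in its activation by MMP14, was at 152 to 231 and 224 to 246 CPM and was not called (log2 difference 0.39, SE 0.15, limma adjusted p = 0.06).

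In WT astrocytes 6 of the 10 genes were called, beside 11.5% of the 12336 genes tested. Of these 4 were higher, beside 6% of all genes, and 2 lower, beside 5.54%. The groups of 7 of the 10 did not overlap, beside 50.9% of all genes tested and 10% by chance with 3 libraries against 3. The median log2 difference was 0.61 over the 10 and 0.01 over all genes. The 12 pericyte and fibroblast markers summed to 129 to 167 CPM before and 100 to 131 CPM after activation, led by *Tagln*. Of the 6 tested, *Dcn* (log2 fold change 4.14) and *Lum* (5.42) rose and *Tagln* and *Acta2* fell. The 8 endothelial markers summed to 9.92 to 14.7 CPM before activation, of which *Flt1* was 7.94 to 10.4 CPM. After activation they summed to 137 to 154 CPM, nearly all of it *Flt1*. *Cldn5* and *Ly6c1* were at 0 in each of the 12 astrocyte libraries. The part of such cells in the changes of the 10 genes was not tested.

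*SOD1* G93A astrocytes were examined for the same response in a fit of all 12 astrocyte libraries, scaled together. *Timp1* was at 17, 20.1 and 10 CPM when quiescent and 726, 821 and 788 CPM when activated. *Mmp2* was at 9.66, 8.69 and 8.50 CPM and then at 32.2, 30.3 and 23.4 CPM. *Mmp9* was at 0.525, 1.10 and 0 CPM and then at 19.6, 18.8 and 18.3 CPM. In each of the 3 the activated libraries lay above the quiescent ones.

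*Mmp3* had 2 to 5 reads per library in quiescent *SOD1* G93A astrocytes, 0.210, 0.690 and 0.607 CPM, and 14.5, 11.7 and 8.90 CPM after activation. *Mmp15* went from 885, 750 and 734 CPM to 320, 296 and 346 CPM and *Timp3* from 158, 152 and 139 CPM to 37.1, 39.7 and 41.7 CPM, both without overlap. Called were *Timp1* (log2 fold change 5.75, SE 0.21), *Mmp9* (5.06, SE 0.53), *Mmp3* (4.17, SE 0.38), *Mmp2* (1.73, SE 0.16), *Mmp15* (−1.21, SE 0.10) and *Timp3* (−1.83, SE 0.11), which is 6 of 10 beside 13.3% of the 12269 genes tested (4 higher, beside 6.74%, and 2 lower, beside 6.59%). The groups of 8 of the 10 did not overlap, beside 52% of all genes tested. Without *SOD1* G93A quiescent replicate 3, which had no *Mmp9* read, the log2 fold change of *Mmp9* was 4.33. *Mmp14* had a log2 difference of 0.89 (SE 0.11, limma adjusted p = 2.4e-06) and *Timp2* of 0.49 (SE 0.13, limma adjusted p = 0.0064), both under 2-fold, and *Mmp12* and *Mmp13* of −0.59 and −0.28 (limma adjusted p = 0.069 and 0.52).

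Markers of other cells moved with this response too. The microglial markers went from 214 to 321 CPM down to 144 to 204 CPM without overlap, and all 8 tested were lower but none was called. The endothelial markers summed to 7.90 to 8.96 CPM when quiescent, of which *Flt1* was 4.62 to 6.07 CPM. When activated they summed to 112 to 118 CPM, nearly all of it *Flt1*. Pericyte and fibroblast markers summed to 81.1 to 93.1 CPM and then to 79.8 to 89.9 CPM. Of the 5 tested *Dcn* (log2 fold change 3.97), *Lum* (4.60) and *Pdgfrb* (1.22) rose, and the 2 others were lower but not called. The part of such cells in the response was not tested.

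**Figure D2:**
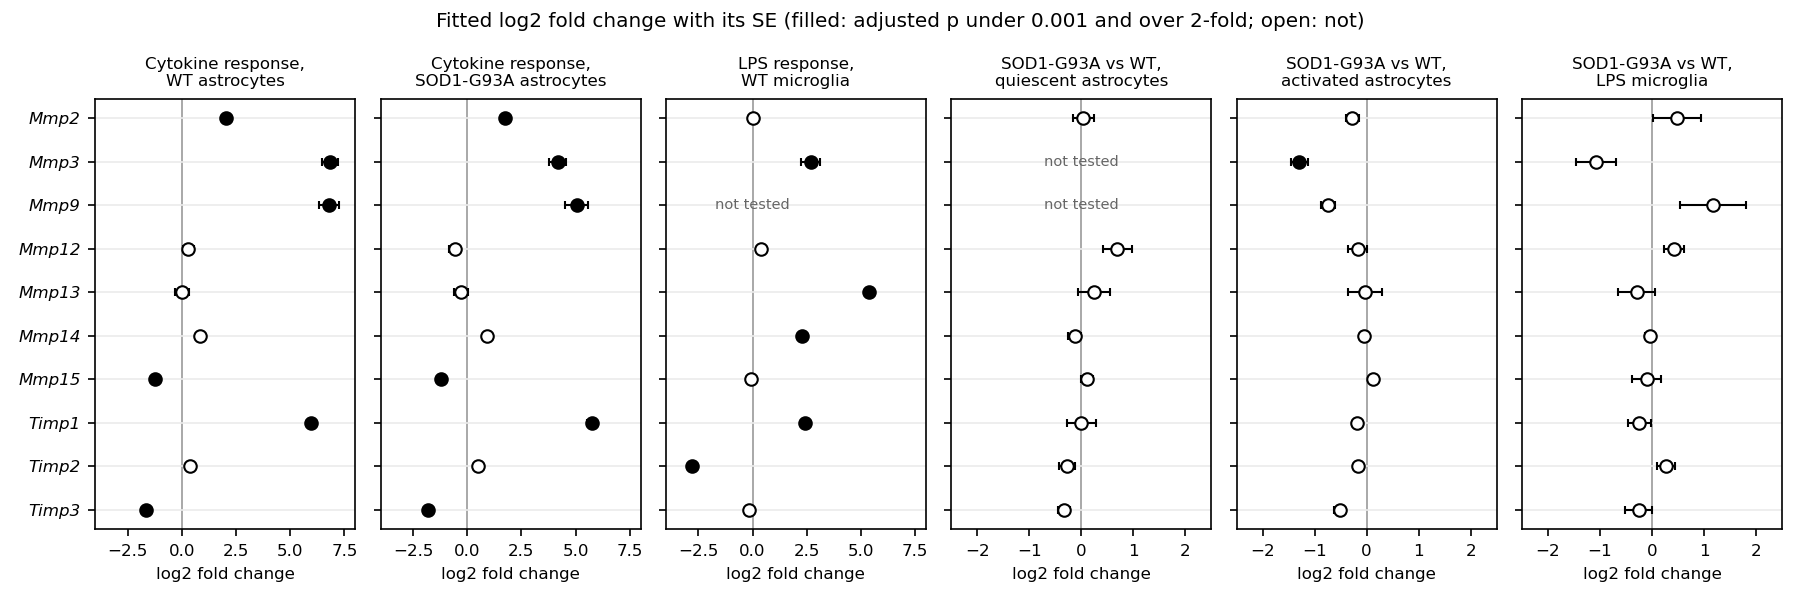
Fitted log2 fold change of each gene (horizontal axis, with its SE) in 6 comparisons, each from 3 libraries a group, 1 per panel. Filled points were called by limma and open points were not. The first 3 panels share a scale from −4 to 8 and the last 3 a narrower one, and *Mmp3* in activated astrocytes, at −1.30, is the only filled point between the genotypes.

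Whether the 2 responses differ was tested as an interaction of genotype and state in the same 12 libraries. None of the 10 genes was called, nor was any of the 12269 genes tested (0%, with limma), while 1018 genes had an unadjusted p-value under 0.05, DESeq2 called 21 genes and edgeR 4. *Mmp3* came closest, with a log2 difference between the responses of −2.59 (SE 0.54, limma adjusted p = 0.058). That value rests on quiescent levels of 0 to 5 reads. The other 9 had adjusted p-values of at least 0.52.

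Between the genotypes of quiescent astrocytes the question was whether the transgene alone alters the genes. None of the 8 tested was called (limma), and neither was any of the 12271 genes (0%), while 1068 genes had an unadjusted p-value under 0.05, DESeq2 called 7 and edgeR 0. *Timp3*, at 168, 184 and 207 CPM in WT and 158, 152 and 139 CPM in *SOD1* G93A libraries, was the one gene of the 8 whose groups did not overlap, beside 14.6% of all genes tested. Its log2 difference was −0.34 (SE 0.12, limma adjusted p = 0.48). The largest difference was that of *Mmp12*, 0.70 (SE 0.27, limma adjusted p = 0.52), from 8.43, 11.8 and 16.8 CPM in WT and 22.3, 23.6 and 14.6 CPM in *SOD1* G93A libraries. These groups overlapped, and the microglial marker sum was 140 to 241 CPM in the first and 214 to 321 CPM in the second.

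In activated astrocytes the genotypes differed at *Mmp3*. The levels of 32.1, 27.8 and 28.4 CPM in WT and 14.5, 11.7 and 8.90 CPM in *SOD1* G93A libraries did not overlap, and the highest *SOD1* G93A library stood far below the lowest WT library. *Mmp3* was lower by a log2 fold change of −1.30 (SE 0.16, limma adjusted p = 1.9e-05), or 2.46-fold, in *SOD1* G93A astrocytes. It was the 1 of the 10 genes called, beside 0.645% of the 12098 genes tested, of which 63 were higher (0.521%) and 15 lower (0.124%). Over 17 alternatives its adjusted p was between 4.1e-09 and 0.024. The highest was that of limma without the intensity trend, which called 1 gene of all those tested and not *Mmp3*. The interaction with state was not called, as given above, and *Mmp3* was too low to be tested in quiescent astrocytes, so a difference particular to activation was not shown.

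At any fold change 3 of the 10 genes had an adjusted p under 0.05, beside 7.27% of all genes. *Mmp9*, at 37.4, 27.8 and 33.6 CPM in WT and 19.6, 18.8 and 18.3 CPM in *SOD1* G93A activated astrocytes, also had separate groups and a log2 difference of −0.74 (SE 0.13, limma adjusted p = 9.1e-04), which is under 2-fold. *Timp3* differed by −0.52 (SE 0.10, limma adjusted p = 0.0027), *Mmp2* by −0.28 (SE 0.12, limma adjusted p = 0.21) and *Timp1* by −0.18 (SE 0.06, limma adjusted p = 0.072). The groups of these 5 genes did not overlap, beside 24.1% of all genes tested, and all 5 were lower in *SOD1* G93A libraries. *Mmp12*, *Mmp13*, *Mmp14*, *Mmp15* and *Timp2* overlapped, with log2 differences from −0.18 to 0.12. In CPM, *Timp2* did not overlap, at 226, 246 and 224 in WT and 188, 200 and 219 in *SOD1* G93A libraries.

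The activated groups also differed in depth. The *SOD1* G93A libraries held 2135439 to 3929272 reads and the WT libraries 5047999 to 6768201, so that *Mmp3* had 19 to 54 reads in the first and 162 to 188 in the second. Pericyte and fibroblast markers summed to 79.8 to 89.9 CPM and 100 to 131 CPM, led by *Tagln*, and microglial markers to 144 to 204 CPM and 143 to 270 CPM. Endothelial markers, led by *Flt1*, summed to 112 to 118 CPM and 137 to 154 CPM, without overlap. The neuronal marker *Dcx* was called lower in *SOD1* G93A libraries (log2 fold change −1.13, limma adjusted p = 9e-05). The part of depth or of these cells in the differences was not tested.

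Some of these MMPs, but not all, stood at other levels in microglia, as compared between the cell types below. *Mmp12* was at 810, 806 and 804 CPM in WT quiescent microglia and at 883, 898 and 930 CPM after LPS. The LPS libraries lay just above the quiescent ones, with a log2 difference of 0.38 (SE 0.07, limma adjusted p = 0.0013), and *Mmp12* was not called. Scaled by counted reads, its log2 difference was 0.16 (adjusted p = 0.054). *Mmp13* was at 19.6, 21.6 and 22.3 CPM in quiescent and at 728, 770 and 815 CPM in LPS microglia. It rose from a low, even level to about that of *Mmp12* in reads, by a log2 fold change of 5.39 (SE 0.09, limma adjusted p = 3.7e-11, higher in 3 of 3 libraries), or 42.0-fold. Per kilobase of exon *Mmp13* was then the more abundant, at 288 ± 16 RPKM against 125 ± 3.3 RPKM for *Mmp12* (SD, n = 3).

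*Mmp14* was at 137, 124 and 134 CPM in quiescent and 587, 546 and 529 CPM in LPS microglia. It rose by a log2 fold change of 2.29 (SE 0.08, limma adjusted p = 2.6e-09), without overlap. *Mmp15* stayed at 4.51 to 7.78 CPM across the 6 WT microglia libraries and was not called (log2 difference −0.07, SE 0.21, limma adjusted p = 0.81).

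*Mmp3* was near the limit of detection in quiescent microglia, at 0.295, 0.784 and 0.576 CPM or 2 to 4 reads, and reached 5.66, 3.73 and 2.57 CPM with LPS. The groups did not overlap and *Mmp3* was called (log2 fold change 2.69, SE 0.44, limma adjusted p = 4e-04), but not without WT quiescent replicate 1 (log2 fold change 2.40, limma adjusted p = 0.0016), WT quiescent replicate 3 (2.74, adjusted p = 0.0012) or WT LPS replicate 2 (2.68, adjusted p = 0.0023). Without WT LPS replicate 1 it was too low to be tested. With the replicate number as a block it was not called either (2.69, limma adjusted p = 0.0012). In all it lost its call in 4 of 15 alternatives, with an adjusted p of at most 0.0023. Of the gelatinases, *Mmp2* was at 13.4 to 21.6 CPM before and 12.4 to 16.9 CPM after LPS, with a log2 difference of 0.03 (SE 0.19, limma adjusted p = 0.92), or −0.19 (adjusted p = 0.43) when scaled by counted reads. *Mmp9* had 0 to 5 reads in quiescent and 6 to 9 reads in LPS libraries, too few to be tested.

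The inhibitors moved apart in microglia. *Timp2* was at 374, 432 and 391 CPM when quiescent and 56.4, 41.8 and 48.6 CPM with LPS, so that each LPS library lay far below each quiescent one. It fell by 2.82 on the log2 scale (SE 0.11, limma adjusted p = 8.7e-09). *Timp1* was at 10.7, 9.41 and 9.94 CPM and then at 54.5, 42.2 and 44.9 CPM, and it rose by a log2 fold change of 2.42 (SE 0.13, limma adjusted p = 6.7e-08). *Timp3* was at 9.42 to 15.7 CPM in the 6 libraries and was not called (log2 difference −0.15, SE 0.16, limma adjusted p = 0.46).

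In the LPS response 5 of the 9 tested genes were called, beside 20.8% of the 10866 genes tested. Of these 4 were higher, beside 10.2% of all genes, and 1 lower, beside 10.6%. The groups of 6 did not overlap, which is near the 64.6% of all genes tested. Their median log2 difference was 0.38, and that of all genes was 0.00. In the same comparison 7 of the 10 microglial markers fell and none rose, and their part in the fall of *Timp2* was not tested. The astrocyte markers of these libraries summed to 156 to 169 CPM when quiescent and 159 to 235 CPM with LPS. Of the 9 tested 4 were higher and 5 lower, and only *Gja1* (log2 fold change 2.72) and *Slc1a2* (2.28), both higher, were called.

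Markers of other cells also moved with LPS. The endothelial markers went from 67.4 to 75.7 CPM to 46.3 to 56.1 CPM, and of the 3 tested *Pecam1* (log2 fold change 4.17) and *Kdr* (1.01) rose and *Flt1* (−3.47) fell. Of 7 pericyte and fibroblast markers tested *Dcn* (4.98) rose and the others were not called. Of the 6 markers of border and perivascular macrophages, 3 were tested and *Ms4a7* rose, from 33.1 to 36.1 CPM to 165 to 224 CPM. It made up nearly all of their sum, which went from 38.8 to 42.3 CPM to 169 to 229 CPM, and *Cd163* and *Lyve1* were at 0 in all 6 libraries. Of the oligodendrocyte-lineage markers 5 were tested, *Cspg4* and *Mbp* fell and the 3 others were higher but not called. Their sum went from 1321 to 1362 CPM to 108 to 116 CPM, mostly by *Cspg4*, which was at 1202 to 1247 CPM and then 61.3 to 68.5 CPM. The part of such cells in the changes was not tested.

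Between the genotypes of LPS microglia none of the 10 genes was called (limma), nor was any of the 10679 genes tested (0%). Of all genes 930 had an unadjusted p-value under 0.05, DESeq2 called 3 and edgeR 0. The spread within the *SOD1* G93A group was wide because of replicate 3. *Mmp13* was at 825, 935 and 319 CPM in the *SOD1* G93A libraries and *Mmp12* at 1050, 983 and 1718 CPM, so that replicate 3 had the lowest *Mmp13* and the highest *Mmp12* of the 6 LPS libraries.

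*Mmp2* was at 13.7, 12.3 and 52.4 CPM, *Mmp9* at 2.7, 1.30 and 8.66 CPM and *Timp1* at 47.0, 47.4 and 27.5 CPM in these *SOD1* G93A libraries, and replicate 3 was again the one apart. *Timp2* was at 49.9, 52.5 and 76.7 CPM. The *Mmp12* groups did not overlap, beside 18.2% of all genes tested, with a log2 difference of 0.43 (SE 0.19, limma adjusted p = 0.58), and 0.19 (limma adjusted p = 0.89) without replicate 3. For *Mmp13* the log2 difference was −0.29 (SE 0.36, limma adjusted p = 0.80) with it and 0.21 (limma adjusted p = 0.89) without it, for *Mmp2* 0.48 and −0.17, for *Mmp9* 1.17 and 0.48, and for *Mmp3* −1.08 and −0.97, from 5.66, 3.73 and 2.57 CPM in WT and 2.54, 1.30 and 1.48 CPM in *SOD1* G93A libraries. In replicate 3 *Mmp12* was 40.7% of the microglial marker sum and in the other 5 LPS libraries 37.6% to 39.3%, while *Mmp13* was 7.55% of it and in the other 5 30.9% to 35.8%. The part of the microglial markers in the position of this library was not tested.

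Quiescent WT microglia and astrocytes, compared in a fit of the 12 WT libraries, differed most in *Mmp12* and *Mmp15*. *Mmp12* was higher in microglia by a log2 fold change of 6.60 (SE 0.20, limma adjusted p = 7e-13) and *Mmp15*, at 7.78, 6.27 and 7.49 CPM in quiescent microglia, was lower by −6.07 (SE 0.14, limma adjusted p = 1.1e-13). *Mmp13* (2.65, SE 0.24), *Timp2* (1.69, SE 0.15) and *Mmp2* (1.50, SE 0.19) were also higher in microglia and *Timp3* (−3.12, SE 0.15) was lower. This made 6 of 10 genes called, beside 47.6% of the 12334 genes tested, with 4 higher (beside 22%) and 2 lower (beside 25.6%). The groups of 7, the 6 called genes and *Mmp3*, did not overlap, beside 80.5% of all genes tested. *Mmp3* had 0 to 2 reads in the astrocyte libraries and 2 to 4 in the microglia libraries. With 3 reads allowed where it had none, its groups may overlap. *Mmp14* (−0.07, SE 0.10) and *Timp1* (−0.02, SE 0.17) were not called, with limma adjusted p-values of 0.57 and 0.90.

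This comparison depends on the scaling. In CPM the microglia libraries were the lower for both genes, without overlap, at 124 to 137 against 178 to 226 CPM for *Mmp14* and 9.41 to 10.7 against 10.9 to 17.6 CPM for *Timp1*. Scaled by counted reads the log2 differences were −0.62 (adjusted p = 1.8e-05) and −0.56 (adjusted p = 0.004), both under 2-fold. *Mmp2* was then not called (0.96, limma adjusted p = 3.2e-04), while *Mmp12*, *Mmp13*, *Mmp15*, *Timp2* and *Timp3* kept their calls. Cell type cannot be told apart here from the age of the mice, the brain region, the isolation and the medium.

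The low *Mmp15* and *Timp3* of microglia stood beside astrocyte markers at 139 to 235 CPM. *Mmp15* was at 2.47% to 4.60% of that sum in the microglia libraries and at 6.22% to 17.2% of the same sum in the astrocyte libraries, and *Timp3* at 4.62% to 10.1% and 0.821% to 3.33%. The part of astrocyte RNA in either level was not tested.

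The cytokine response of astrocytes and the LPS response of microglia, which use different stimuli, were set against each other in the same 12 WT libraries. Of the 10 genes 8 differed between the responses, beside 15.2% of the 12334 genes tested, with 4 in each direction (beside 6.73% higher and 8.44% lower). The response of microglia was the higher for *Mmp13* (log2 difference between the responses 5.42, SE 0.33), *Timp3* (1.52, SE 0.21), *Mmp14* (1.48, SE 0.15) and *Mmp15* (1.18, SE 0.20), and the lower for *Mmp3* (−3.90, SE 0.57), *Timp1* (−3.48, SE 0.23), *Timp2* (−3.18, SE 0.22) and *Mmp2* (−1.99, SE 0.27). *Timp3* and *Mmp15* fell in astrocytes and were not called in microglia, as given above. Limma adjusted p-values of the 8 were at most 3.4e-04. *Mmp15* lost its call in 7 of 23 alternatives. It was not called without WT quiescent astrocyte replicate 2 (1.17) or 3 (1.11), WT activated astrocyte replicate 1 (1.13) or 2 (1.18) or WT quiescent microglia replicate 2 (1.09), with adjusted p-values of 0.0011 to 0.0016, nor by limma without trend (adjusted p = 0.002) nor scaled by counted reads (0.97, adjusted p = 0.0013). *Mmp3* lost its call in 1 of 22 alternatives, edgeR (−4.16, adjusted p = 0.0016). *Mmp9* (−3.88, SE 0.84, limma adjusted p = 0.0018) and *Mmp12* (0.11, SE 0.29, limma adjusted p = 0.78) were not called. With a library left out the value of *Mmp9* ran from −4.40 to −3.22, with limma adjusted p-values of 7.1e-04 to 0.0077. *Mmp9* was called in 5 of 22 alternatives. They include the fit without WT quiescent astrocyte replicate 3 (−4.40, limma adjusted p = 7.1e-04) and that scaled by counted reads (−4.49, limma adjusted p = 5.3e-04).

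Levels per kilobase of exon give the make-up of each culture. *Mmp15* made up 73.3% ± 1.6 (SD, n = 3) of the summed RPKM of the MMP family in WT quiescent astrocytes and *Mmp14* 18.6% ± 1.0, and each other MMP gene was at 1.8% or less. In WT activated astrocytes *Mmp14* (34.7% ± 0.7) and *Mmp15* (33.0% ± 2.4) were level within their spread, followed by *Mmp3* (9.57% ± 0.59), *Mmp2* (6.17% ± 0.41) and *Mmp9* (5.45% ± 0.69), of which the last 2 did not differ beyond their spread. The family sum was much the same, at 182 ± 12.9 RPKM in the quiescent and 170 ± 3.7 RPKM in the activated libraries.

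In *SOD1* G93A activated astrocytes *Mmp15* (39.6% ± 2.2) and *Mmp14* (37.0% ± 1.8) led, with *Mmp3* at 4.35% ± 1.05. *Mmp12* made up 73.1% ± 0.4 of the family in WT quiescent microglia, followed by *Mmp14* (14.5% ± 0.7) and *Mmp13* (5.20% ± 0.36). With LPS the order was *Mmp13* (52.4% ± 1.4), *Mmp12* (22.7% ± 0.1) and *Mmp14* (16.9% ± 1.4), and the family sum went from 152 ± 0.8 RPKM to 550 ± 17.5 RPKM.

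Among the inhibitors *Timp2* led in the 3 quiescent groups, with 50.7% ± 3.9 of the summed TIMP RPKM in WT astrocytes, 47.6% ± 1.9 in *SOD1* G93A astrocytes and 88.5% ± 1.3 in WT microglia. *Timp1* led in the 4 activated groups and made up 93.7% ± 0.4 in WT activated astrocytes, 93.6% ± 0.4 in *SOD1* G93A activated astrocytes, 79.0% ± 0.9 in WT LPS microglia and 72.3% ± 10.5 in *SOD1* G93A LPS microglia. The summed TIMP level went from 92.3 ± 15.3 RPKM to 1092 ± 17.6 RPKM with the cytokines in WT astrocytes, and from 116 ± 7.0 RPKM to 67.3 ± 9.2 RPKM with LPS in WT microglia.

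**Figure D3:**
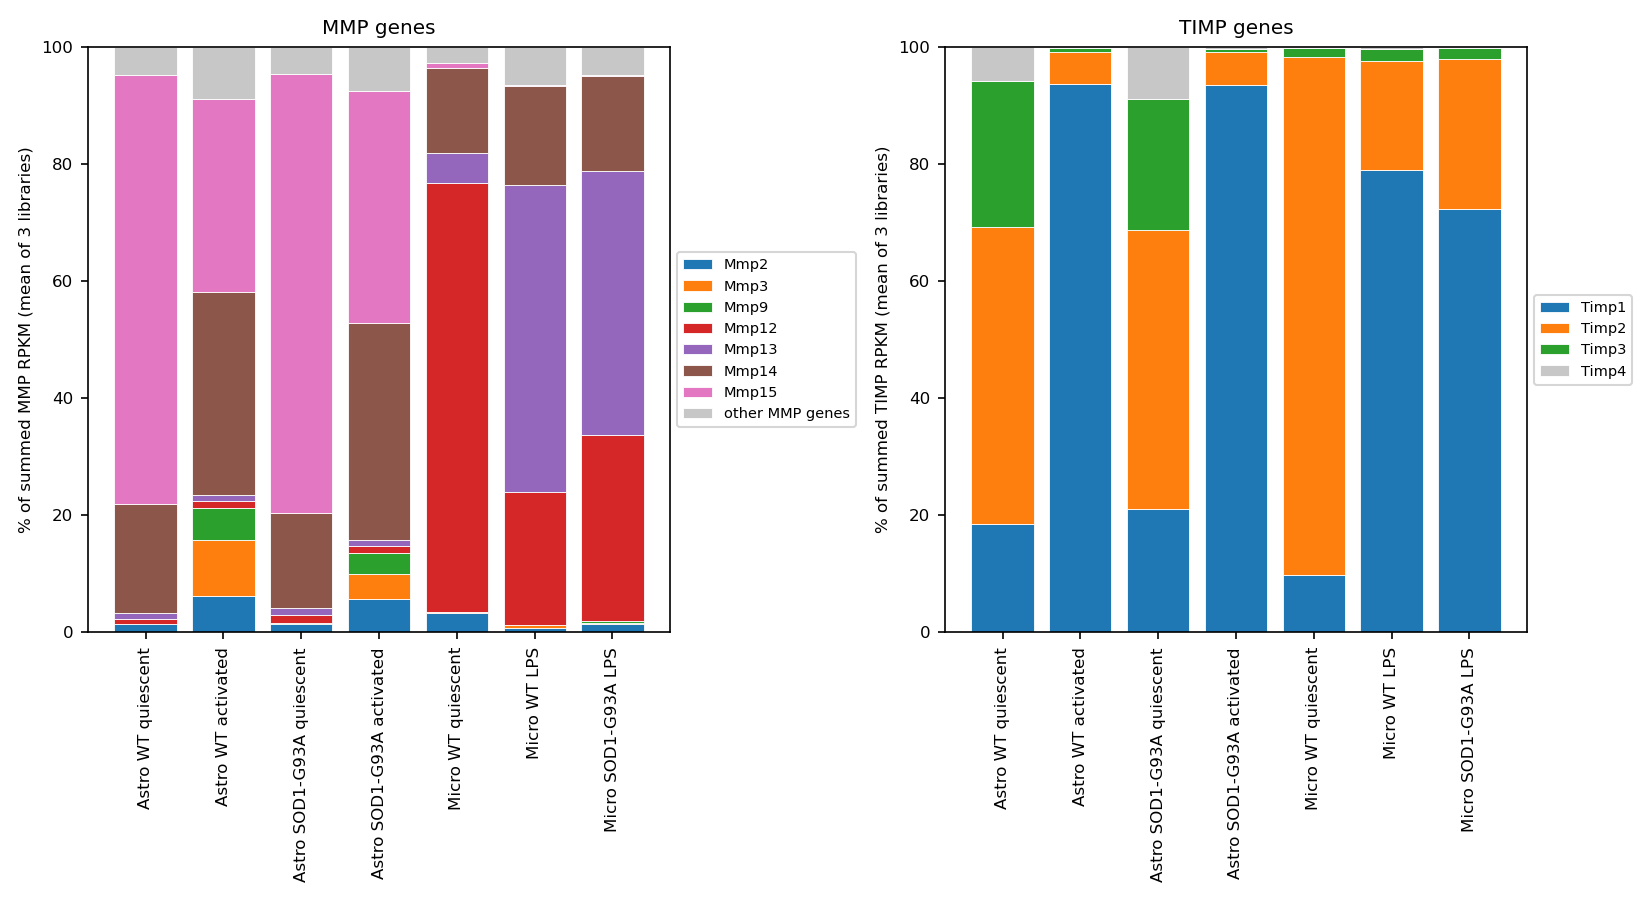
Share of each gene in the summed RPKM of the MMP genes (left) and of the TIMP genes (right), in percent on the vertical axis, as the mean of the 3 libraries of each condition. *Mmp15* fills 73.3% of the MMP bar of WT quiescent astrocytes, *Mmp12* 73.1% of that of WT quiescent microglia and *Timp1* 93.7% of the TIMP bar of WT activated astrocytes.

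Of the 17 other MMP and TIMP genes 6 were tested in WT astrocytes, and 1 rose and 1 fell, beside 6% and 5.54% of all genes. *Mmp19*, at 1.49 to 5.94 CPM when quiescent and 23.0 to 30.7 CPM when activated, rose by a log2 fold change of 2.90 (limma adjusted p = 1.5e-04), and *Timp4*, at 24.3 to 34.9 and 8.52 to 13.4 CPM, fell by 1.42 on the log2 scale (limma adjusted p = 1.6e-04). In *SOD1* G93A astrocytes *Mmp19* rose by 3.02, and *Timp4* and *Mmp17* fell by 1.05 and 1.04 on that scale. *Mmp16*, a membrane-type MMP, was at 15.5 to 37.1 CPM in the 12 astrocyte libraries and under 1 CPM in the 9 microglia libraries.

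In WT microglia 5 of the 17 were tested and 4 rose with LPS, beside 10.2% of all genes. *Mmp8*, the neutrophil collagenase, was at 1.18 to 2.31 CPM before and 58.1 to 73.4 CPM after LPS (log2 fold change 5.18, limma adjusted p = 2e-08). *Mmp25*, a leukocyte membrane-type MMP, was at 0.784 to 2.02 and 14.9 to 19.5 CPM (log2 fold change 3.90, limma adjusted p = 1.6e-06). The stromelysin *Mmp10* reached 3.42 to 3.92 CPM and *Mmp27* 2.94 to 5.54 CPM, from at most 0.197 CPM. Neutrophil markers summed to 0.197 to 0.784 CPM before and 2.57 to 5.54 CPM after LPS, and *Elane*, *Ltf* and *Retnlg* were at 0 in each of these 6 libraries. *Mmp1a* and *Mmp7* had no read in any of the 21 libraries.

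Some regulators of MMPs are named here because they were called, and they do not stand for the rest. Urokinase and the proprotein convertases can cut MMP precursors. In WT astrocytes the urokinase receptor *Plaur* (log2 fold change 2.02) and the convertase *Furin* (1.14) rose. In WT microglia urokinase, *Plau*, was at 608 to 656 CPM in quiescent and 20.2 to 31.2 CPM in LPS microglia and fell by 4.51 on the log2 scale (limma adjusted p = 2e-09), while *Serpinb2*, an inhibitor of urokinase, rose by 7.34 (limma adjusted p = 1.9e-10) from 1.96 to 3.17 CPM to 332 to 377 CPM. Each of these 4 genes differed between the 2 responses, microglia less astrocytes, by −1.53 for *Plaur*, −1.31 for *Furin*, −4.56 for *Plau* and 6.85 for *Serpinb2*.

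Of 9 other regulators and binding partners, 5 were called higher in WT astrocytes and none was called lower, beside the 6% and 5.54% given above. They include *Lcn2*, whose product binds MMP9, at 23.3 to 34.1 CPM when quiescent and 2986 to 3266 CPM when activated (log2 fold change 6.70, limma adjusted p = 5.8e-10), the broad protease inhibitor *A2m* (2.13), and the hyaluronan receptor *Cd44* (2.29). In WT microglia 8 were tested, *Thbs1* (6.15) and *Lcn2* (2.98) rose, and *Lrp1*, a receptor that takes up MMP and TIMP complexes, fell by 2.40, beside 10.2% and 10.6% of all genes. Of the ADAM and ADAMTS proteases 3 of 15 tested rose and 1 fell in WT astrocytes, and 2 of 10 rose and 4 fell in WT microglia, beside the same shares of all genes. *Adamts4*, an aggrecanase, was among those that rose in both, by 2.26 and 3.34.

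Of 23 matrix substrates tested in WT astrocytes 8 rose, 3 fell and 12 were not called, beside 6% of all genes higher and 5.54% lower. Tenascin C (*Tnc*) was at 726 to 1359 CPM when quiescent and 3884 to 4415 CPM when activated and rose by a log2 fold change of 2.20, and versican (*Vcan*) by 1.94, while the neural proteoglycans brevican (*Bcan*) and neurocan (*Ncan*) fell by 1.47 and 1.21 on the log2 scale. In WT microglia 1 of 18 rose and 4 fell, beside 10.2% and 10.6%. Osteopontin (*Spp1*), an MMP substrate, rose in WT astrocytes by 3.64 and fell in WT microglia by 2.13 on the log2 scale, and this difference between the responses was called (−5.75, limma adjusted p = 8.8e-10). No regulator, related protease or substrate named above was called between the genotypes in any of the 3 settings.

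The 3 genes whose log2 level was most like that of a member were taken by Pearson correlation over the libraries of a cell type. These libraries share few conditions and the 3 are picked from 9968 genes, so high values come with the choice. Over the 12 astrocyte libraries they were *Litaf*, *Tm4sf1* (0.999 each) and *Tnfaip2* (0.998) for *Timp1*, *Ntng2*, *Phlda1* and *Col23a1* (0.990 to 0.991) for *Mmp3*, and *Mylk2*, *Serpina3n* and *Fstl1* (0.994 to 0.995) for *Mmp9*. For *Mmp15* they were *Zeb1*, *Cdkn2c* and *Adgrg1* (0.995 to 0.998), for *Timp3* *Tfdp1*, *Smc6* and *Mcm5* (0.992 to 0.995), and for *Timp2* *Morc4*, *Gtf2e1* and *Cdk17* (0.960 to 0.962). Over the 9 microglia libraries, among 8109 genes, *Lrrc16a*, *Slc15a3* and *C2* (0.998 to 0.999) were most like *Mmp13*, *Ccnd1*, *Rps6ka1* and *Eid1* (0.999 each) most like *Timp2*, *Clu*, *A2m* and *Mt3* (0.927 to 0.943) most like *Timp3*, and *Slc16a13*, *Pdia4* and *Tmem165* (0.916 to 0.940) most like *Mmp2*.

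*Mmp13*, *Mmp12* and *Mmp3* lie in a run of MMP genes on chromosome 9. In the GENCODE M21 annotation of GRCm38 (mm10), *Mmp13* is at chr9:7272514-7283331, *Mmp12* at chr9:7344381-7369499 and *Mmp3* at chr9:7445822-7455975, all on the plus strand. With *Mmp1b*, *Mmp1a*, *Mmp10*, *Mmp8*, *Mmp27*, *Mmp20* and *Mmp7* they make up 10 MMP genes within 427072 bases. *Mmp3* was highest in activated astrocytes and also rose in LPS microglia, *Mmp13* was highest in LPS microglia and *Mmp12* was high in all microglia. The others lie apart, *Mmp2* (chr8:92827291-92853420) and *Mmp15* (chr8:95352268-95375080) on chromosome 8, *Mmp9* at chr2:164940780-164955850, *Mmp14* at chr14:54431612-54445364, *Timp1* at chrX:20870166-20874735, *Timp2* at chr11:118301069-118355740 and *Timp3* at chr10:86300372-86349506.

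Some of these genes overlap another. *Timp2* shares bases with *Cep295nl* on its own strand. On the opposite strand *Timp1* lies against *Syn1* and *Timp3* against *Syn3*, and *Mmp12* overlaps the end of *Mmp1b*. The libraries were strand-specific, but whether the counting used the strand is not given in the sources used here, and without it reads of the overlapping stretches could not be told apart. *Syn1* was at 16.4 to 18.8 CPM in WT quiescent and 28.3 to 32 CPM in WT activated astrocytes, *Syn3* at 3.56 to 7.02 CPM in the 12 astrocyte libraries and *Mmp1b* at no more than 0.247 CPM in any library.

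**Figure D4:**
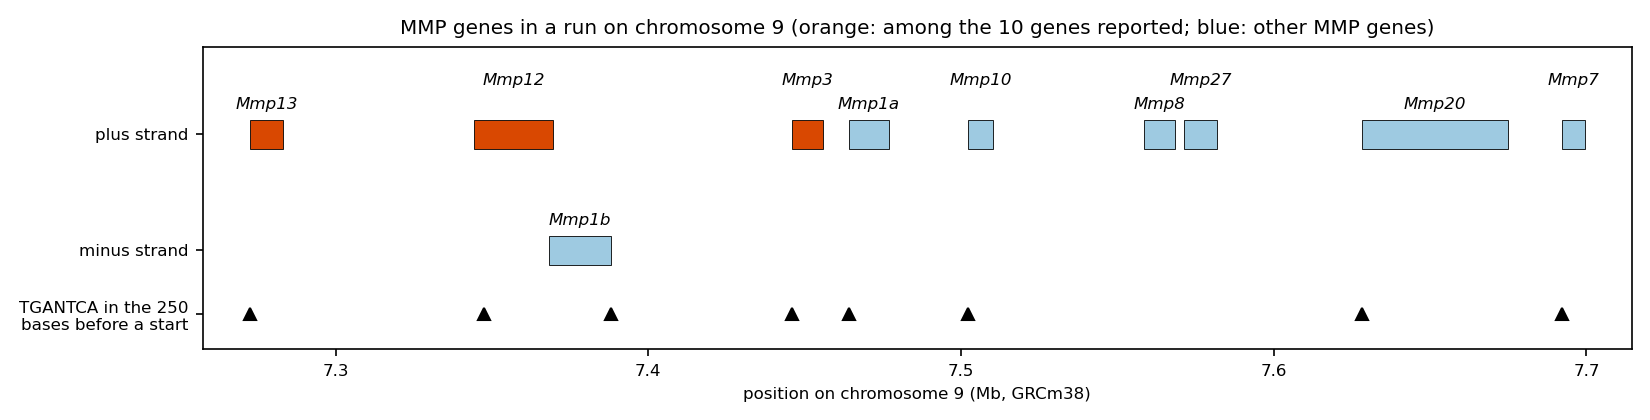
Map of the 10 MMP genes in the run on chromosome 9 (GRCm38), to scale, with position in Mb on the horizontal axis and strand on the vertical axis. Orange boxes are *Mmp13*, *Mmp12* and *Mmp3*, blue boxes other MMP genes, and triangles mark starts with TGANTCA in the 250 bases before them, found for 8 of the 10 genes.

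Promoter sequences were looked up because genes of this run rose in different cells. Of the MMP and TIMP genes 22 had an entry in RefSeq promoters of GRCm38.p6, 8 of them members. *Mmp2* and *Mmp9* had none. The 250 bases before each start were searched on both strands for TGANTCA, the core bound by AP-1 factors, TATAAA, the TATA box, AGGAAG, an ETS core, and an NF-κB core of 3 G, any 2 bases, 3 T and 2 C. TGANTCA was found in 8 of the 10 genes on chromosome 9 and in none of the 12 elsewhere, and in 6.75% of all 32851 promoters. TATAAA was found in 7 of these 10 and in 1 of the 12, and in 12.4% of all promoters. AGGAAG was found in 6 of the 10 and 6 of the 12 genes, against 29.5% of all promoters, and the NF-κB core in none, against 1.41%. A match is a stretch of letters, and none was tested for binding here.

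The 120 bases before the start, the more upstream of the RefSeq and GENCODE starts where they differ, are shown for the run's 3 members and for *Mmp10*, a stromelysin of the same run that rose in LPS microglia, to set side by side genes of the run with unlike patterns. *Mmp1a* lies between *Mmp3* and *Mmp10*. *Mmp10* was chosen for this after its values were seen. Capitals mark TGANTCA and TATAAA. All 4 are on the plus strand, at chr9:7272394-7272513 for *Mmp13*, chr9:7344261-7344380 for *Mmp12*, chr9:7445702-7445821 for *Mmp3* and chr9:7502222-7502341 for *Mmp10*. The 2 sources give the same start for *Mmp13* and *Mmp3*, 7344397 (RefSeq) and 7344381 (GENCODE) for *Mmp12*, and 7502342 (RefSeq) and 7502352 (GENCODE) for *Mmp10*.
Mmp13: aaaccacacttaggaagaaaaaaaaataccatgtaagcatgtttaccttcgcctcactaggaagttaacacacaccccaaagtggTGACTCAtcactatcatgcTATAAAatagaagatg
Mmp12: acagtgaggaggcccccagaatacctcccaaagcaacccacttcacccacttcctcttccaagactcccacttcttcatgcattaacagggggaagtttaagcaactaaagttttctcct
Mmp3: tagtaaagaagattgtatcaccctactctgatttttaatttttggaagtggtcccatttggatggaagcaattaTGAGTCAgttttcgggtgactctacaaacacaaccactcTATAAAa
Mmp10: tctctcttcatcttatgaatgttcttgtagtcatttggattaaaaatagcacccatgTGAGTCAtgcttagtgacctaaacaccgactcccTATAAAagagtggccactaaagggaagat
*Mmp13*, *Mmp3* and *Mmp10* have both motifs in these bases, TGANTCA before TATAAA. *Mmp12* has neither before this start, and has TGANTCA 44 bases before a second RefSeq start at position 7347374.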

How the data were processed

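The 24 samples of the series are bulk RNA-seq of cultured mouse glia, and 21 of them had values in 6 deposited tables of 24411 genes, with 3 libraries in each of 7 conditions. The 3 samples of quiescent *SOD1* G93A microglia were not used here. The authors made strand-specific libraries of polyadenylated RNA, sequenced them in pairs, aligned the reads by STAR 2.7.3a (genome mm10), used RSEM for the counts per gene and DESeq2 for scaling. The signal values of each table are, as deposited by the authors, normalised counts, that is reads divided by the size factor of the library. The comparison columns of the authors (mean, fold change, its error, statistic and p-values) were not used, and each of the 36 per-library columns was. Whole reads were recovered for 100% of values by dividing out that factor (relative tolerance 0.0001), and libraries present in several tables gave the same reads. The table of WT quiescent against *SOD1* G93A LPS microglia mixes genotype with activation and served for recovery alone.

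The test was limma with an intensity trend, on log2(value + 1) of those genes whose mean reached 10. A gene was called where its p-value, adjusted after Benjamini and Hochberg, was under 0.001 and its change over 2-fold. The tests were 5 comparisons of 6 libraries within a table and 4 within 12 libraries, which share control libraries among them and whose recovered reads were scaled together by the median of ratios. Alternatives were pseudocounts of 0.5 and 5, no minimum mean, at least 10 in every library, TMM scaling, DESeq2, edgeR, limma without trend, an adjusted p under 0.05 at any fold change, a replicate block, a depth class term for quiescent astrocytes, and each library left out. Scaling by the counted reads of each library was added after seeing the data, because CPM and size factors differ by 0.22 on the log2 scale in the LPS response and 0.55 between quiescent cell types. The 10 genes and the lists were chosen with earlier results of these data known. Beside the 10 genes, those named are from 5 lists of related genes and 8 of cell type markers where they were called or exceeded 10 CPM, and the 3 genes most like each of the 10. The counts of 1 list are not reported here. Exon lengths and positions are from GENCODE M21 and promoters from RefSeq. The tools were R 4.3.3, limma 3.58.1, edgeR 4.0.16 and DESeq2 1.42.0. Each tool was tested on simulated data. Depth was 2016139 to 11570122 reads per library.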

Additional observations from a re-analysis of the deposited data

Results flagged for a closer look

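For 8 of the 10 genes the change with activation differed between WT microglia given LPS and WT astrocytes given the 3 cytokines. Of all 12334 genes tested 15.2% differed so. The difference of the log2 changes, microglia less astrocytes, was −1.99 for *Mmp2*, −3.90 for *Mmp3*, 5.42 for *Mmp13*, 1.48 for *Mmp14*, 1.18 for *Mmp15*, −3.48 for *Timp1*, −3.18 for *Timp2* and 1.52 for *Timp3*. In the astrocyte libraries *Mmp2*, *Mmp3* and *Timp1* rose and *Mmp15* and *Timp3* fell, and in the microglia libraries *Mmp13* and *Mmp14* rose and *Timp2* fell. *Mmp3* and *Timp1* also rose in microglia, by less. *Mmp14* was also higher in the activated astrocyte libraries, by a log2 difference of 0.83, under the 2-fold limit. *Mmp15* lost its call in 7 of 23 alternatives (5 with a library left out, limma without trend and counted reads scaling), with adjusted p-values up to 0.002, and *Mmp3* in 1 of 22, edgeR (−4.16, adjusted p = 0.0016).

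Stimulus, isolation, medium, brain region and age of the mice go with the cell type in this design and cannot be told apart from it. Astrocyte markers summed to 156 to 235 CPM in the WT microglia libraries and microglial markers to 140 to 270 CPM in the WT astrocyte libraries, and their part in these differences was not tested.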

How the results depend on the processing

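None of the values of the 10 genes that was called, in the results as given or under an alternative, changed its direction under any alternative. Of the refitted values 1681 kept their side of the threshold, 18 passed it only under the alternative and 14 only without it. Scaling by counted reads, chosen after seeing the data, kept every count within 1.5 times. With it *Mmp2* was not called between quiescent cell types (0.96), and for cell type by activation *Mmp15* was not called (0.97) and *Mmp9* was (−4.49).

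In the cytokine response of WT astrocytes 1424 genes were called, 4722 at an adjusted p under 0.05 at any fold change, and 1087 to 1547 with a library left out. As given and with each library left out 6 of the 10 genes were called, and at any fold change *Mmp14* besides. In *SOD1* G93A astrocytes these counts were 1635, 5328 and 1486 to 1678. As given and with each library left out 6 of the 10 genes were again called, and at any fold change *Mmp14* and *Timp2* besides. With at least 10 in every library *Mmp3* and *Mmp9* were no longer tested. *Mmp2*, *Mmp15*, *Timp1* and *Timp3* then kept their calls in either genotype. In the LPS response of WT microglia 2263 genes were called, 6185 at any fold change and 1991 to 2334 with a library left out. As given 5 of the 9 genes tested were called and with a library left out 4 or 5, the one lost being *Mmp3*. At any fold change *Mmp12* was called besides.

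Between genotypes, limma called no gene in quiescent astrocytes, DESeq2 7, limma at any fold change 7 and limma with a depth class term 13. In activated astrocytes 78 genes were called, 67 to 81 with a library left out and 879 at any fold change, with 3 of the 10 genes among them. Limma without trend called 1 gene and 0 of the 10. In LPS microglia limma called no gene, DESeq2 3 and limma at any fold change 1. For genotype by state limma called no gene, and 3 with a pseudocount of 5, 34 at any fold change, DESeq2 21, edgeR 4, and 0 to 6 genes were called with a library left out, the 6 without WT quiescent astrocyte replicate 1. None of these was among the 10. The causes were not tested.

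Between the quiescent cell types 5876 genes were called, 9699 at any fold change, 5570 to 5945 with a library left out and 3616 with at least 10 in every library, where fewer genes are tested. *Mmp3* was called there under 7 alternatives, from 2 to 4 reads. For cell type by activation 1871 genes were called, 5052 at any fold change and 1593 to 1848 with a library left out. *Mmp3* was not called there by edgeR (−4.16, adjusted p = 0.0016) nor *Mmp15* without trend (adjusted p = 0.002), and *Mmp9* was called by DESeq2 (−4.32) and with a pseudocount of 5 (−3.35).

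With the replicate number as a replicate block, 1423 genes were called in the cytokine response of WT astrocytes and 2201 in the LPS response. *Mmp3* lost its call in the latter. The block gave 100 genes between the genotypes of activated astrocytes and 1576 in the response of *SOD1* G93A astrocytes. It gave 5848 between quiescent cell types and 1854 for cell type by activation. The 3 other comparisons had 0. Deviations from the group mean did not go with the number across groups, and the replicates were not taken as pairs. In quiescent astrocytes their correlation was −0.40 and −0.44 for replicates 1 and 3 of the same number, but 0.52 for WT replicate 3 with *SOD1* G93A replicate 1, the deepest of each group, and 0.35 for WT 1 with *SOD1* G93A 3, the shallowest.

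Depth limits the genes near 0. *Mmp3* and *Mmp9* in quiescent cultures rest on 0 to 8 reads per library, and their fitted changes depend on the pseudocount.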
